A study of Homo sapiens with 9 samples.

Results

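The H/ACA small nucleolar RNAs (symbols beginning with SNORA) and the small Cajal body RNAs (SCARNA) were followed across oligo(dT) primers in HEK293T cells and in A549 cells. Members were all genes whose RefSeq symbol starts with SNORA or SCARNA followed by a digit and whose transcript entry is noncoding, with 1 entry per gene, the one with most reads. The rule gave 161 of 26625 genes, of which 133 were SNORA and 28 SCARNA genes. It used no measured difference between libraries. Of the 161, 94 had at least 1 read in the 7 libraries with gene counts and 67 had none.

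The libraries were made by CLT-seq, in which an adaptor-flanked oligo(dT) primer starts reverse transcription on total RNA and a splint adaptor is then joined to the cDNA. The labels describe every cell as wild type and name no treatment. HEK293T, a human embryonic kidney line, was primed with T12, T18 or T30, which carry only thymidines, or with T18V, T18VN or T18VNN, which end in 1 to 3 anchor bases (V is any base but T, N any base). A549, a lung epithelial line, was primed with T12. Each primer had 1 library with gene counts, T12 replicate 1 in HEK293T and T12 replicate 2 in A549; the other 2 of the 9 libraries were not analysed here. The 3 primers of a class therefore stood in for replicates, so each p-value measures the spread between primers. The labels call the T12 libraries biological replicates, and nothing in the labels ties the libraries of the other primers to separate cultures.

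H/ACA RNAs fold into hairpins followed by a hinge (the H box) and a tail that ends with the letters ACA shortly before the 3′ end. With dyskerin (DKC1), NHP2, NOP10 and GAR1 they guide pseudouridine formation. The SNORA RNAs do so mostly in ribosomal RNA, and the Cajal body RNAs of H/ACA type mostly in spliceosomal snRNAs. Some Cajal body RNAs, SCARNA9 among them, are of the C/D type instead. Most human members are cut out of introns of host genes and carry no stable poly(A) tail, although short A tails are added and removed while their 3′ ends mature.

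Sequences of 132 of the 161 members were found in GENCODE release 29 (GRCh38), 109 SNORA and 23 SCARNA. The letters ACA stood 3 bases from the 3′ end in 83 of 109 SNORA entries (76.1%) and 12 of 23 SCARNA entries (52.2%), against 4 of 288 C/D box snoRNA entries (1.39%). An H box pattern, ANANNA, occurred somewhere in 98.2% of SNORA and 95.7% of SCARNA entries, but also in 83.3% of C/D entries. The C box core TGATGA occurred in 10 of 23 SCARNA entries (43.5%), 4 of 109 SNORA entries (3.67%) and 223 of 288 C/D entries (77.4%). All 3 patterns were searched on the RNA strand alone, and a match is a description of letters. The following entries are shown because the values below turn on them. Capitals mark the ANANNA match nearest the middle and the terminal ACA, and in SCARNA9, a C/D type Cajal body RNA, a TGATGA match; of SCARNA9 only bases 254 to 353 are shown.
SCARNA9: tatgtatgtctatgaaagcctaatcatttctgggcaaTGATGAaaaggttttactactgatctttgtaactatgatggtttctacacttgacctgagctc
SNORA12: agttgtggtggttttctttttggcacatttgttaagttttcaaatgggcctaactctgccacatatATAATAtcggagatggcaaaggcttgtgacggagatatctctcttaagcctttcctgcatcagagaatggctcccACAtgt
SNORA79: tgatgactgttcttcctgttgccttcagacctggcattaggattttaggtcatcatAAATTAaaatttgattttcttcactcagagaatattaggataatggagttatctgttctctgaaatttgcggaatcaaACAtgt
SCARNA4: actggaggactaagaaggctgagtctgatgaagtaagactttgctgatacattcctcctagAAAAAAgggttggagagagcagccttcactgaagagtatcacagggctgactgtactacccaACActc
SCARNA18: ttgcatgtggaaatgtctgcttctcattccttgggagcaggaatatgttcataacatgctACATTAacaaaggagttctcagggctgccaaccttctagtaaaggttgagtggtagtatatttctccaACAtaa
SCARNA18B: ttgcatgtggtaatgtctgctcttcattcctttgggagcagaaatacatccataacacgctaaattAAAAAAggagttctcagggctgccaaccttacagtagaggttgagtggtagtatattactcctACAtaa
SNORA27: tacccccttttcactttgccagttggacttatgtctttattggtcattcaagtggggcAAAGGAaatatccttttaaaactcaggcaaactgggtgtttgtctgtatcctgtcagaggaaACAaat
SNORA36A: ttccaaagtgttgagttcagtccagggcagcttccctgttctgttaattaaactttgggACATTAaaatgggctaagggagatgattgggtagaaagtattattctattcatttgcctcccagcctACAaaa
SCARNA23: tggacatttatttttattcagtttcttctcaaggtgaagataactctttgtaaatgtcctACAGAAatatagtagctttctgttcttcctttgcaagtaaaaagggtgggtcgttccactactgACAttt

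Runs of A, to which an oligo(dT) primer could pair inside an RNA, were counted in the matched entries alone, without flanking host sequence. The longest run in any matched member was 7 A, in SNORA32, the median was 3, and 15 of 132 members had a run of 5 or more. Such runs occurred in 9.17% of SNORA, 21.7% of SCARNA and 25.3% of C/D entries. Whether priming inside these RNAs gave any of the reads was not tested. SNORA12 had no run over 3 A, SNORA79 none over 4, and SCARNA4 and SCARNA18B each had 6. Over the 83 members with a sequence and reads, Spearman's rho between longest run and total reads was 0.20, across genes that share the same libraries. SCARNA18 and SCARNA18B were identical at 119 of 135 aligned positions (88.2%), so their reads could have been split by the counting.

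Reads assigned to genes numbered 1498191 to 5200798 per library, 11.7% to 37.5% of each library's total. In HEK293T this share was 17.3%, 20.3% and 11.7% with T12, T18 and T30. With T18V, T18VN and T18VNN it was 37.5%, 28.1% and 27.7%, without overlap between the classes. Levels, overlaps and ranks below are by CPM, reads per 1000000 of these gene reads, unless another scale is named. Some differ when scaled to library totals, as in the authors' FPKM, which also divides by length. In CPM, 3 reads correspond to 0.577 to 2.00. The 10 A549 markers summed to 15540 CPM in A549 and 1.42 to 4.51 in HEK293T, with AKR1B10, AKR1C3, TGFBI, KRT7 and KRT19 at 0 in every HEK293T library and EPCAM at 0 in A549. The 10 HEK293T markers summed to 1500 to 2627 CPM in HEK293T and 23.4 in A549, with 7 at 0 there, and 5 markers of other cells to 4.59 to 29.2 and 38.1 CPM.

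Members together took 0.0659% to 0.435% of gene reads in HEK293T. Among unanchored primers their summed level was 793.1 (T12), 746.2 (T18) and 1806 CPM (T30). Among anchored primers it was 659.2 (T18V), 2473 (T18VN) and 4345 CPM (T18VNN). The anchored mean was 2492 ± 1843 (SD, n = 3) and the unanchored mean 1115 ± 598.5 (SD, n = 3), a ratio of 2.24. By CPM the classes overlapped: T18V was the lowest of the 6 libraries, and T18VN and T18VNN the highest. Scaled to recovered library totals instead of gene reads, the sums were 136.9 (T12), 151.7 (T18) and 210.9 (T30). With T18V, T18VN and T18VNN they were then 247.3, 694.4 and 1205, so on that scale the classes did not overlap. Without T18VNN the ratio of the CPM means was 1.41-fold. The 14 members outside the span of any other gene with a symbol summed to 29.3 ± 18.3 CPM unanchored and 14.8 ± 10.8 anchored (SD, n = 3 each). Entries without a symbol were not searched as hosts, so some of the 14 may have one. SNORA25 alone gave 26.9 and 8.87 of these CPM. The other 13 summed to 2.49 ± 3.01 and 5.92 ± 3.64 CPM (SD, n = 3 each), a difference within their spread.

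**Figure D1:**
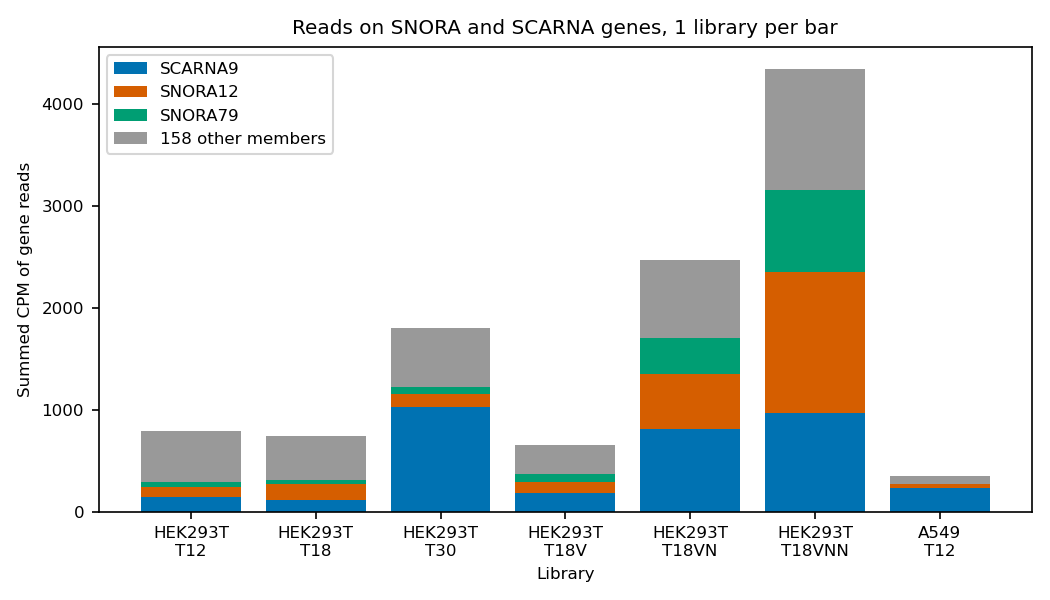
Summed CPM of the 161 members in each of the 7 libraries, split into the 3 leading members and the 158 others. The T18VNN bar is the highest at 4345 CPM and the A549 bar the lowest at 349.1 CPM.

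SCARNA9, SNORA12 and SNORA79 had the most reads summed over the libraries. They made up 36.3% of member reads with T12, 41.7% with T18 and 56.0% to 72.7% with the other HEK293T primers. The other 158 members summed to 506.7 ± 72.07 CPM (SD, n = 3) with unanchored and 747.4 ± 447.5 (SD, n = 3) with anchored primers. Members with at least 3 reads numbered 40, 43 and 33 with T12, T18 and T30, and 40, 49 and 59 with T18V, T18VN and T18VNN. At an equal 1498191 gene reads the expected numbers were 32.45 ± 2.69 and 40.12 ± 9.437 (SD, n = 3 each), a difference of 7.67, smaller than the SD within the anchored class. In all 6 HEK293T libraries 26 members reached 3 reads, and 85 did so in no library.

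Of 10887 genes tested with edgeR, 147 (1.35%) passed an adjusted p of 0.05 between anchored and unanchored primers, 85 higher and 62 lower. Of the 31 members tested none passed, while 10 had an unadjusted p under 0.05, as did 15.6% of all genes. Of the 10, 8 were higher (8.08% of all genes) and 2 lower (7.48%); 2 of the 8, SNORA62 and SCARNA16, had 0 to 3 reads in each unanchored library and passed the read filter only through the anchored ones. DESeq2 gave an adjusted p to 7697 genes and called 7.9% of them (3.62% higher, 4.27% lower). It called 6 of 21 members: SNORA12, SNORA79, SNORA41, SCARNA4 and SCARNA18 higher and SCARNA23 lower. The median log2 fold change was 0.40 over tested members and 0.00 over all tested genes, with 20 members above 0 (49.9% of genes) and 11 below (50.1%). Scaling to recovered library totals instead called 2222 genes higher and 52 lower, and moved the median of all genes to 1.07. The 130 members not tested had too few reads, at most 10.0 CPM (SNORA80A with T18VNN).

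**Figure D2:**
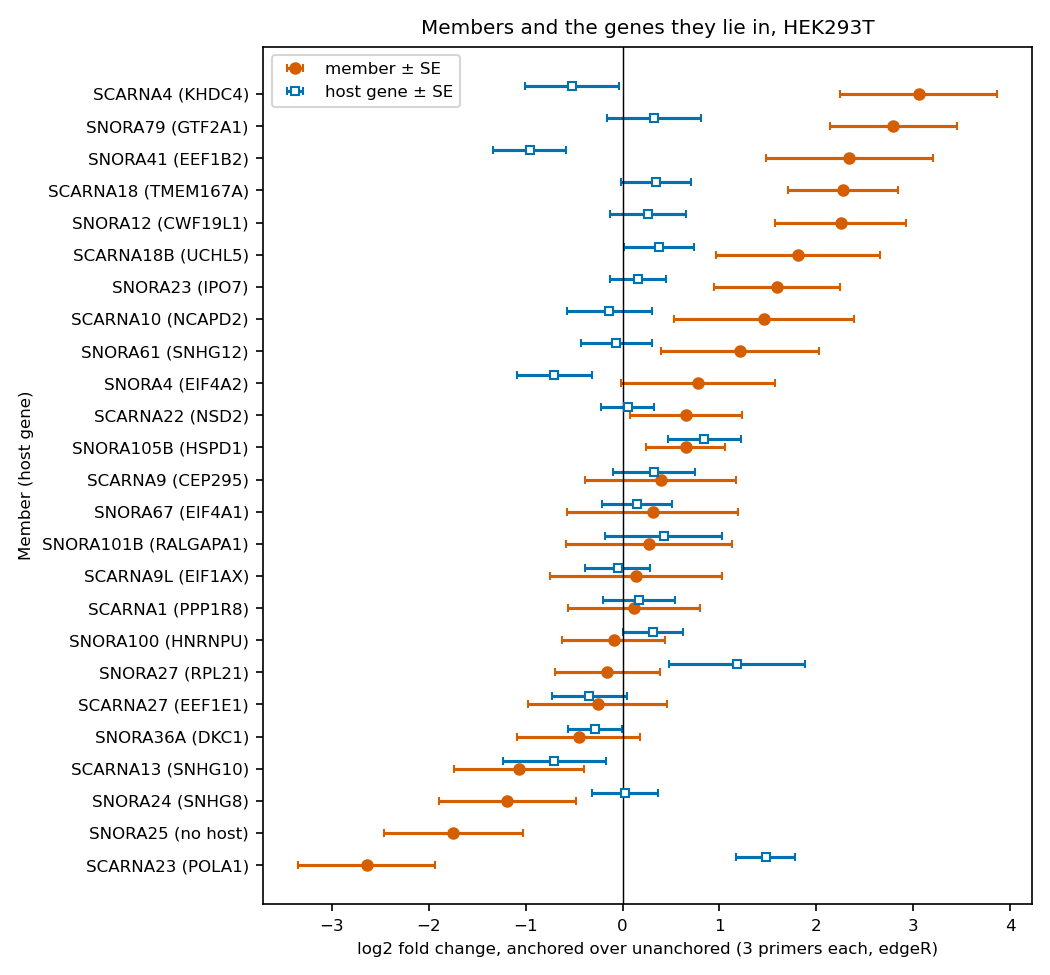
Log2 fold change, anchored minus unanchored, for the 25 named members (circles) and their host genes (squares), with bars for the standard error from edgeR. SCARNA4, SNORA79 and SNORA41 lie furthest to the right and SCARNA23 at -2.64 furthest to the left, and no member passed an adjusted p of 0.05.

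Among nucleolar members, SNORA12 (U108), which lies on chr10:101996913-101997059, minus strand of hg19, in an intron of CWF19L1, had the most reads summed over the libraries, although SNORA27 was slightly above it with T12. It measured 95.5, 155.7 and 124.1 CPM with T12, T18 and T30, and 104.9, 538.1 and 1384 CPM with T18V, T18VN and T18VNN. By CPM T18V lay inside the unanchored range, while T18VN and T18VNN lay far above it. By FPKM T18V (267.9) was also above the unanchored libraries (112.2, 215.4 and 98.6). The fitted log2 fold change was 2.25 (SE 0.67, edgeR adjusted p = 0.132). SNORA79 (ACA65), in an intron of GTF2A1 at chr14:81669039-81669178 on the minus strand, measured 46.9, 37.9 and 73.1 CPM with unanchored and 80.0, 353.5 and 807.7 CPM with anchored primers. Its classes did not overlap, although by CPM T18V stood close to T30. The log2 fold change was 2.80 (SE 0.66, edgeR adjusted p = 0.0620). Without T18V the edgeR adjusted p was 0.0176 for SNORA79, 0.0290 for SNORA12 and 0.0216 for SCARNA4. Without T18VNN the log2 fold changes were 1.84 for SNORA79, 1.14 for SNORA12 and 2.62 for SCARNA4, and the edgeR adjusted p was 0.244, 0.497 and 0.310.

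SNORA41, in the span of EEF1B2, measured 15.0, 5.19 and 1.35 CPM with unanchored and 9.61, 23.9 and 89.8 CPM with anchored primers. By CPM T12 exceeded T18V, so the classes overlapped, whereas by FPKM T18V (27.3) was above T12 (19.6) and they did not. The log2 fold change of SNORA41 was 2.34 (SE 0.86, edgeR adjusted p = 0.215). SNORA23, hosted by IPO7, had a log2 fold change of 1.59 (SE 0.65). SNORA100, in the span of HNRNPU, differed little, with 34.0, 123.4 and 122.7 CPM against 43.4, 139.0 and 117.3 CPM. SNORA27, within RPL21, measured 95.8, 30.0 and 38.8 CPM against 19.9, 67.4 and 77.3 CPM, with T12 the highest of the 6. By FPKM, SNORA27 was higher with T18VNN (170.2) than with T12 (131.3). The log2 fold changes of SNORA100 and SNORA27, -0.09 and -0.16, became positive when scaled to recovered library totals.

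**Figure D3:**
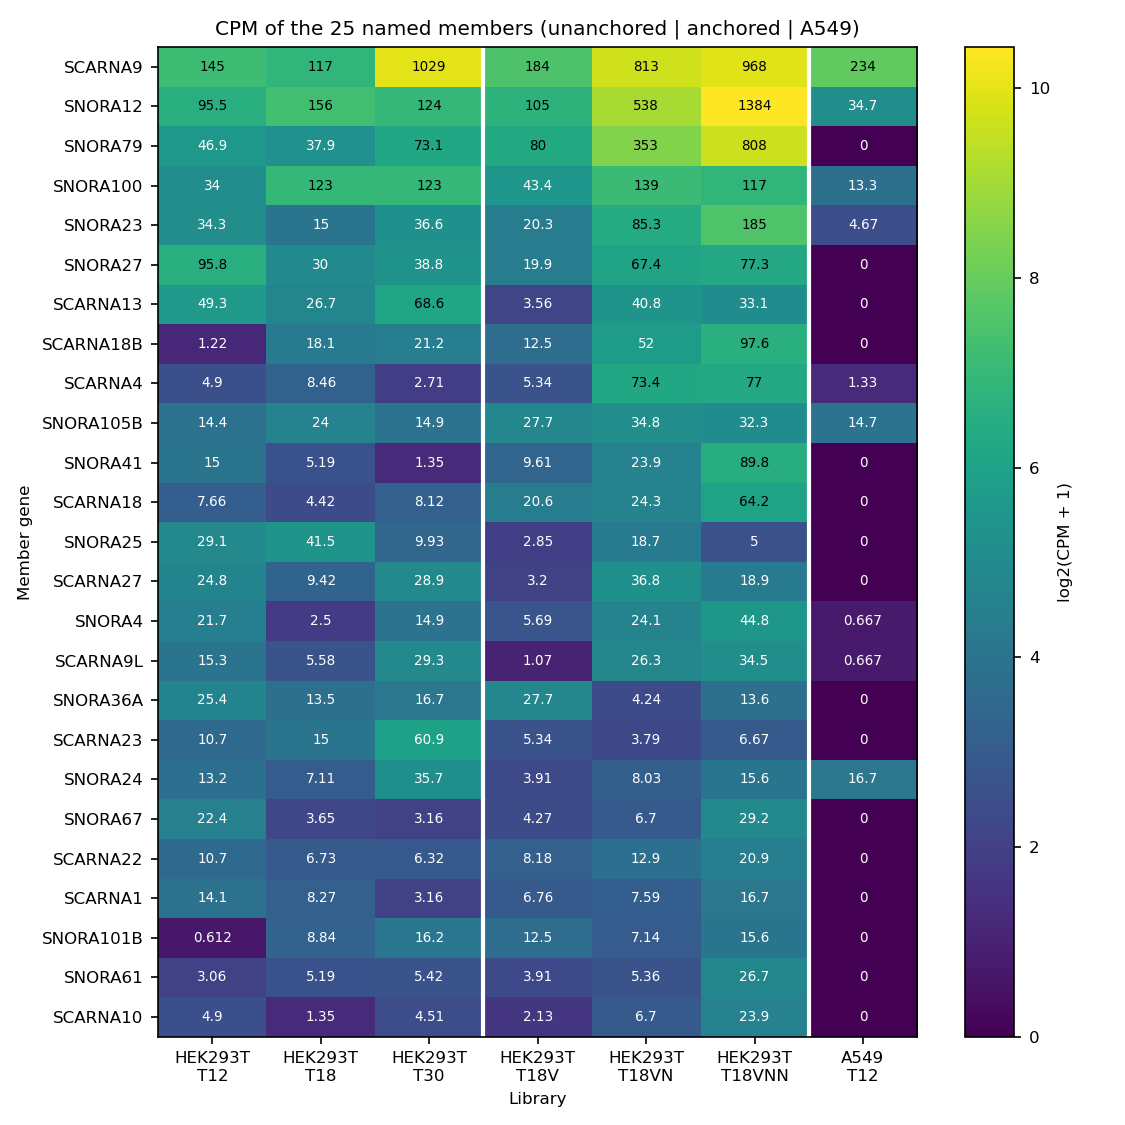
CPM of the 25 named members (rows) in the 7 libraries (columns), coloured by log2(CPM + 1) and printed in each cell. SCARNA9, SNORA12 and SNORA79 fill the brightest cells, and most cells of the A549 column are at 0.

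Among Cajal body RNAs, SCARNA9 (mgU2-19/30), at chr11:93454680-93455032 on the plus strand in an intron of CEP295, measured 145.5, 117.3 and 1029 CPM with T12, T18 and T30. With T18V, T18VN and T18VNN it measured 184.3, 813.0 and 968.2 CPM. By CPM T30 was the highest of the 6, so the classes overlapped. By FPKM T30 (340.4) was below T18VN (646.8) and T18VNN (760.9) but still above T18V (195.9). The log2 fold change of SCARNA9 was 0.40 (SE 0.78, edgeR adjusted p = 0.864). Scaled to recovered library totals it was 1.74 (edgeR adjusted p = 0.0443). SCARNA4 (ACA26), in the span of KHDC4 at chr1:155895749-155895877 on the minus strand, measured 4.90, 8.46 and 2.71 CPM with unanchored and 5.34, 73.4 and 77.0 CPM with anchored primers. By CPM T18V again lay among the unanchored libraries. By FPKM it was above them, at 15.5 against 6.56, 13.3 and 2.45. The log2 fold change of SCARNA4, 3.05 (SE 0.81, edgeR adjusted p = 0.0908), was the highest of the named members.

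SCARNA18 (U109), in the span of TMEM167A, measured 7.66, 4.42 and 8.12 CPM with unanchored and 20.6, 24.3 and 64.2 CPM with anchored primers. Every anchored library exceeded every unanchored one, as for 5 of 31 tested members (SNORA62 and SCARNA16 among them) and 16.8% of all tested genes. The log2 fold change was 2.27 (SE 0.57, edgeR adjusted p = 0.0737). SCARNA18B, its near copy in the span of UCHL5, measured 1.22, 18.1 and 21.2 CPM against 12.5, 52.0 and 97.6 CPM, and its classes overlapped. By FPKM they did not, with T18V at 34.6 and T18, the highest unanchored library, at 27.2. SCARNA13 (U93), in the span of SNHG10, measured 49.3, 26.7 and 68.6 CPM against 3.56, 40.8 and 33.1 CPM. T18V was its lowest library, and its log2 fold change of -1.07 (SE 0.67) turned to 0.017 when scaled to recovered library totals.

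SCARNA23 (ACA12), in the span of POLA1 at chrX:24762558-24762687 on the plus strand, was the 1 tested member with all anchored libraries below all unanchored ones, as were 6.8% of tested genes. It measured 10.7, 15.0 and 60.9 CPM with T12, T18 and T30, and 5.34, 3.79 and 6.67 CPM with the anchored primers. By FPKM its classes overlapped, with T18V (15.4) above T12 (14.2). The log2 fold change was -2.64 (SE 0.71, edgeR adjusted p = 0.0958), and -1.45 without T30. SNORA25, an H/ACA member outside other genes with a symbol, measured 29.1, 41.5 and 9.93 CPM against 2.85, 18.8 and 5.00 CPM, and its classes overlapped. Its log2 fold change was -1.75 (SE 0.72, edgeR adjusted p = 0.270).

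SNORA105B, in the span of HSPD1, measured 14.4, 24.0 and 14.9 CPM with unanchored and 27.7, 34.8 and 32.2 CPM with anchored primers, without overlap. SNORA4, in EIF4A2, measured 21.7, 2.5 and 14.9 CPM against 5.69, 24.1 and 44.8 CPM, with wide overlap. SNORA24, in SNHG8, was highest with T30 at 35.7 CPM, and SNORA36A, in DKC1, was lowest with T18VN at 4.24 CPM. By FPKM, SNORA24 was similar with T30 (31.8) and T18VNN (33.0). Per length, on the authors' FPKM scale, SNORA27 led these RNAs with T12 at 131.3 FPKM, above SNORA12 at 112.2 and SCARNA9 at 71.1. With T18VNN, SNORA12 reached 2613 FPKM, SNORA79 1601 and SCARNA9 760.9.

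T18VN and T18VNN, where the summed member level was highest, were both above the other 4 HEK293T libraries for 12 of 31 tested members, against 12.3% of all tested genes. T18VNN was the highest of the 6 for 15 members, against 18.5% of genes. These groupings were not among the planned comparisons and follow the summed levels, so the counts describe the members and test nothing. Other small RNA classes also varied by primer: spliceosomal snRNA genes (21) summed to 107 to 231.2 CPM in 5 HEK293T libraries and 1531 with T18VNN. The 296 C/D box genes summed to 216.6 CPM with T30 and 2760 with T18V. Whether these shifts have a part in the member values was not tested.

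Of the 161 members, 147 overlapped the span of another gene with a symbol, 138 on the same strand. Of the 132 with a GENCODE sequence, 87 were intronic in every host transcript spanning them, and 33 were exonic in some. SNORA41, SNORA27, SNORA4 and SNORA24 were among the 33, so spliced host RNA could also cover them. Strand use in the counting is not given in the sources used here, so reads of a host could count for a member. Of 53 members with a host and at least 20 reads, 12 had more reads than the host in at least 1 library. SNORA12 had 3.51 times the CPM of CWF19L1 with T18V and 34.6 times with T18VNN, and CWF19L1 itself had a log2 fold change of 0.26 (SE 0.39). SNORA79 had 1.30 to 37.7 times the CPM of GTF2A1, whose log2 fold change was 0.33 (SE 0.49). SCARNA4 had 0.15 to 6.02 times that of KHDC4, at -0.52 (SE 0.49). Of 114 tested genes that host any member, edgeR called 2, MAGED4 and POLA1. POLA1, the host of SCARNA23, differed in the opposite direction to its member, at 1.48 (SE 0.31, edgeR adjusted p = 0.0428).

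In A549 the members summed to 349.1 CPM with T12, below all 6 HEK293T libraries, of which SCARNA9 alone gave 234.3 CPM. With 1 library per line no test was possible, intervals cover counting error only, and fewer expressing cells and less RNA per cell cannot be told apart. The 23 members with at least 20 reads in either T12 library all reached them in HEK293T and only 5 did in A549, so 18 entered through the line in which they were higher, and the counts are a description of these 23. On the log2(CPM + 1) scale 20 were at least 2-fold lower in A549, against 29.2% of 10145 genes, and none 2-fold higher, against 31% of genes. In A549, 14 had 0 reads, against 5.34% of 8756 genes with at least 20 reads in HEK293T T12. Those genes were not matched to the members by read number, and A549 had fewer gene reads (1498191 against 3265699). The 2 shares are therefore not like for like. Of the 5 that reached 20 reads in A549, SNORA12 and SNORA100 were at least 2-fold lower, and SNORA105B, SNORA24 and SCARNA9 were within 2-fold.

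**Figure D4:**
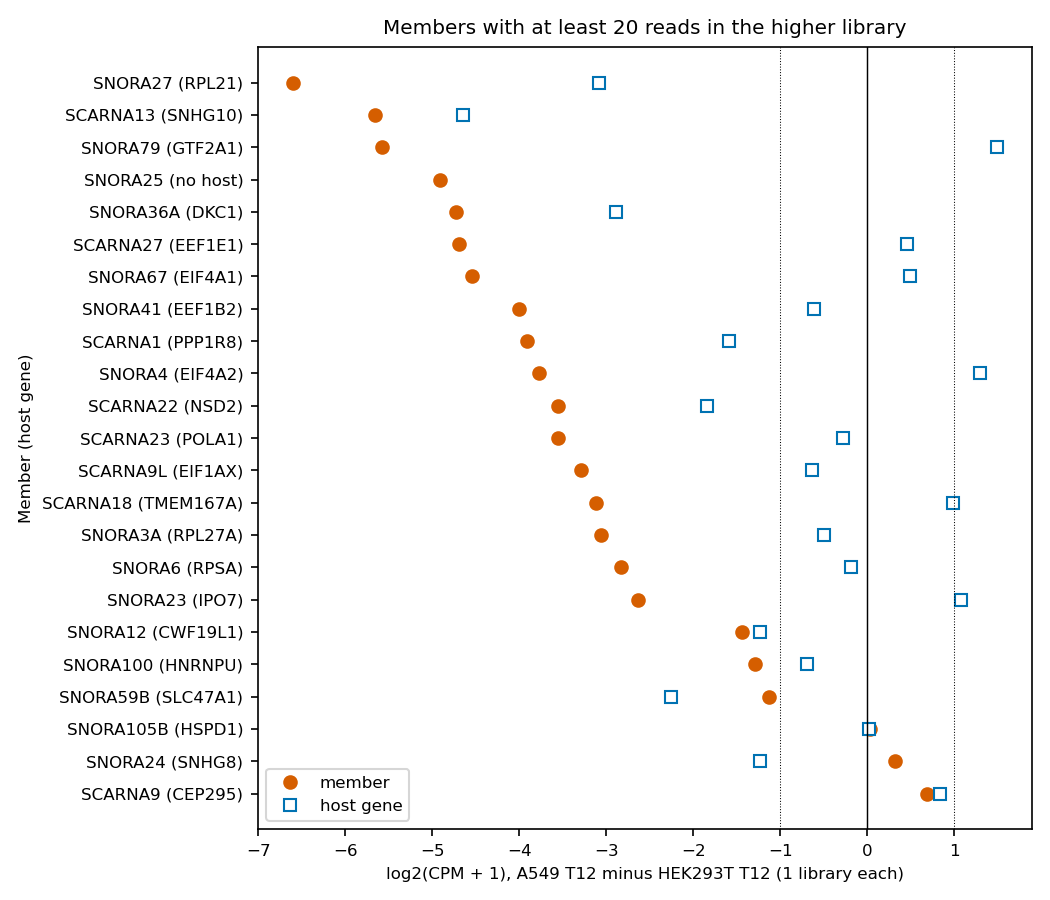
Members with at least 20 reads in A549 T12 or HEK293T T12, by their difference in log2(CPM + 1), A549 minus HEK293T, with host genes as squares. SCARNA9, SNORA105B and SNORA24 lie within 2-fold of equality, and the remaining members lie lower in A549.

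SNORA27 had 313 reads in HEK293T and 0 in A549, at least 47.9-fold lower against the 3-read floor, and its host RPL21 measured 114.5 and 12.7 CPM. SNORA79 went from 153 reads to 0, at least 23.4-fold lower, whereas GTF2A1 was 2.87 times higher in A549 (80.1 against 27.9 CPM). SNORA36A, in the DKC1 gene, went from 83 reads to 0, at least 12.7-fold lower, with DKC1 at 476.2 and 63.4 CPM. SNORA23 had 112 and 7 reads, 7.34-fold lower (95% exact interval 3.45 to 18.7), while IPO7 measured 235.5 CPM in HEK293T and 497.9 in A549. SNORA12 had 312 and 52 reads, 2.75-fold lower (2.05 to 3.77). SCARNA9 had 475 and 351 reads and was 1.61 times higher in A549 by CPM (1.40 to 1.85), and its A549 level of 234.3 CPM lay inside its range across HEK293T primers. Over 22 hosts, 8 were at least 2-fold lower in A549, 4 at least 2-fold higher and 10 between.

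Of 29 listed genes for H/ACA proteins, assembly factors, Cajal body proteins and small RNA tailing enzymes, none passed between primer classes by edgeR, and at an unadjusted p under 0.05 there were 2 higher (NOP10, ZFC3H1) and 3 lower (WRAP53, PABPN1, TOE1), against 15.6% of all genes. The list's median log2 fold change was 0.11. The core protein genes measured -0.28 (SE 0.28) for DKC1, the pseudouridine synthase, 0.39 for NHP2, 0.76 for NOP10 and 0.56 for GAR1. Between lines, 15 of 27 listed genes with enough reads were at least 2-fold lower in A549 and 3 at least 2-fold higher, against 29.2% and 31% of all genes. DKC1 was 7.51-fold lower, NOP10 2.74-fold and NHP2 2.26-fold lower, and GAR1 2.12-fold higher (127.5 against 60.0 CPM).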

How the data were processed

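CLT-seq libraries of HEK293T (6 primers) and A549 (T12) were analysed from the deposited gene tables. Per the submitters' processing notes, FastQC 0.11.8, cutadapt 2.10, Trimmomatic 0.39, HISAT2 2.2.1 and SAMtools were used with GRCh37/hg19; strand and multiple matches are not given in the sources used here. The deposited tables give a read count per transcript entry, a depth-scaled signal (FPM), from which library totals were recovered, and FPKM, which the authors computed per length. Of 61177 entries, 60133 received a RefSeq symbol and 1044 were left out. Counts were tested with edgeR 4.0.16 in R 4.3.3 (filterByExpr, TMM, quasi-likelihood, Benjamini-Hochberg adjustment over 10887 genes), with DESeq2 1.42.0 as an alternative. On simulated data with 200 changed genes for this comparison (10608 genes), 20 of 50 changed 4-fold and 50 of 50 changed 16-fold were recovered. In the same run 7 unchanged genes were called. Every simulated gene had the same spread (coefficient of variation 0.484), so recovery is not known for members that varied more between primers. Named members were the tested ones with most reads, at most 25, plus the leading member of each library. A549 folds used a pseudocount of 1. Members and lists were chosen with earlier results of these data known. The alternatives were other scalings, filters and tests and leaving out each library. Coordinates are hg19, 1-based; sequences come from GENCODE release 29 (GRCh38), and that build's coordinates were not used.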

Additional observations from a re-analysis of the deposited data

Results flagged for a closer look

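In 7 of 27 values checked over the 6 HEK293T libraries on the unlogged scale, 1 library stood far from the other 5. The number set by chance, about 1.35 (about 1 in 20), assumes independent and normally distributed values. Members share the same libraries and unlogged levels are skewed, so no excess over chance can be read from the 7. With T18VNN, SNORA12 measured 1384 CPM (next highest 538.1), SNORA41 89.8 CPM (next 23.9), SCARNA18 64.2 CPM (next 24.3), SNORA61 26.7 CPM (next 5.42) and SCARNA10 23.9 CPM (next 6.70). With T30, SCARNA23 measured 60.9 CPM (next 15.0) and SNORA24 35.7 CPM (next 15.6).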

How the results depend on the processing

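No paired analysis was possible because each primer has 1 library with gene counts and the classes share no replicate numbers. The 147 genes called became 608 with DESeq2, 556 with every gene of at least 1 read, 2274 with recovered library totals without TMM, and 45 (without T18VNN) to 111 (without T18VN) when 1 library was left out. Members called went from 0 of 31 to 6 of 21 with DESeq2, against 608 of 7697 genes. They were 7 of 92 with every gene of at least 1 read, against 556 of 16405 genes. With recovered library totals they were 12 of 31, against 2274 of 10887 genes. With 1 library left out they numbered 0 to 3, the 3 being of 38 without T18V, against 63 of 11567 genes. The log2 ratio of summed levels, 1.16, was 2.104 per library total, 0.88 without SNORA12, and 0.49 to 1.70 with 1 library left out. For members outside other genes with a symbol it was -0.99, and 1.25 for these without SNORA25, an alternative chosen after seeing the data. The difference in members detected, 10.67, was 6.33 at 10 reads, 7.67 at equal depth and 5.83 to 15.33 with 1 library left out. Members at least 2-fold lower in A549 numbered 19 or 20 of 23 under other scalings and pseudocounts, and at 10 reads 25 of 32 were lower and 2 higher. With recovered totals these log2 fold changes turned positive: SNORA100 0.96, SNORA27 0.82, SCARNA13 0.017, SCARNA27 0.83, SNORA36A 0.74 and SNORA24 0.043. Leaving out 1 library gave both signs for SCARNA9 (-0.061 to 2.16), SNORA100 (-0.51 to 0.23), SNORA27 (-0.51 to 0.47), SCARNA27 (-1.08 to 0.21), SCARNA9L (-0.47 to 0.85), SNORA67 (-0.98 to 1.75), SCARNA1 (-0.43 to 0.62), SNORA101B (-0.29 to 1.09) and SNORA61 (-0.17 to 1.60). The cause was not tested. Depth limits the A549 values: 3 reads there are 2.00 CPM, and 1 library per primer gives no spread within a primer.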

Other observations

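Several members had few or no reads in any library. SNORA73A had 0 reads in all 7 libraries, SNORA73B had 9 reads, all with T18VNN, and SCARNA2 had 1 read. SNORA62, outside the rule for named members and chosen after its values were seen, had 0, 0 and 1 reads with T12, T18 and T30 and 14, 26 and 16 reads with T18V, T18VN and T18VNN.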
